A study of Mus musculus with 1505 samples.

Results

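The Lamp5 family is one of the main groups of cortical inhibitory neurons, and its transcriptome in mouse primary motor cortex was described here against those of the Sst, Pvalb and Vip families. Its members were the cells recorded at 25 °C whose deposited transcriptomic type (t-type) began with Lamp5, with the Lamp5 Lhx6 type left out. This rule gave 90 of the 1320 labelled cells recorded at 25 °C and of the 1505 labelled cells in all, and it left out 2 Lamp5 Lhx6 cells. The family made up 6.82% of the cells recorded at 25 °C. The families set against it held 710 cells, and Sst cells were 20.6%, Pvalb cells 21.7% and Vip cells 11.52% of the cells recorded at 25 °C. Every cell came from one Patch-seq study, in which a neuron in an acute slice was recorded by patch clamp and its contents, in most cases with the nucleus, were then drawn into the pipette and sequenced with the Smart-seq2 protocol. Per the study the libraries were sequenced in separate batches, and the batch of a cell was not used here. The slices came from adult mice of both sexes, either wild-type C57Bl/6 or carrying a Cre driver with the Ai9 reporter, among them Viaat-Cre, Sst-Cre, Vip-Cre, Pvalb-Cre and Npy-Cre. The labels of a cell give its tissue and t-type but not its animal, age, sex or line, so the share of each line in the Lamp5 family cannot be stated, and a driver chosen for one family limits how far its cells stand for all cells of that family.

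Lamp5 encodes a membrane protein of the lysosome-associated family that is found in neurons. Cortical Lamp5 interneurons include the neurogliaform cells, compact neurons with a dense axon that release GABA diffusely and evoke slow responses through GABA-A and GABA-B receptors. Most of them arise in the caudal ganglionic eminence (CGE), as Vip cells do, whereas Sst and Pvalb cells arise in the medial ganglionic eminence (MGE), and Lamp5 Lhx6 cells are thought to share the MGE origin.

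The exonic counts of the cells of a family were summed and scaled to a total of 1000000 (CPM). Differences were taken as log2 of the ratio of 2 summed levels after 1 CPM was added to each. A gene was called higher or lower where the levels differed at least 2-fold, among the 10451 genes whose mean over the 4 families was at least 10 CPM. The differences were also taken with equal weight for each cell or each recording day, with median-of-ratios scaling, with a pseudocount of 10 CPM, in cells with at least 500000 counts, in the later recording period, without the Lamp5 Slc35d3 type and on recording days shared with the other family. These settings were run for the given markers, the leading and lowest genes described below and the genes picked by rule from gene lists. Where one of them ended the call of such a gene, the log2 difference under it is given. Other named genes were not run under them, among them those named after their values had been seen. For those genes the lack of such a value does not show that a call held. Since no label names an animal, each family counts as 1 sample, and since the t-types were assigned from the same RNA, no difference between families is a test: no p-value is given, and the 95% intervals (exact Poisson for summed levels, exact Clopper-Pearson for shares of cells) cover counting error only. Smart-seq2 reads carry no molecular identifiers, so they are not independent molecules. In a summed level, fewer cells that hold a gene and less of it in each cell cannot be told apart, so the share of cells with a read is given beside the level where the results turn on it. Lamp5 cells held a median of 1187134 exonic counts (range 72692 to 9480497), against medians of 1304010 in Sst, 1427229 in Pvalb and 1030398 in Vip cells. The deepest Lamp5 cell gave 6.73% of the family's counts. After each cell was thinned to 200000 counts, which left out 2 Lamp5, 35 Sst, 13 Pvalb and 3 Vip cells, a Lamp5 cell showed a median of 5383 genes, against 5792 in Sst, 6357 in Pvalb and 4934 in Vip cells. The title of a cell gives a date and a sample number, and that date was taken as its recording day. By these dates Lamp5 cells came from 53 recording days and 91.1% of them fell in the last calendar year at 25 °C (the later recording period). The same held for 59.2% of Sst, 46.9% of Pvalb and 96.1% of Vip cells. Lamp5 cells shared 14 recording days with Sst, 24 with Pvalb and 16 with Vip cells. Those days held 25 Lamp5 and 26 Sst cells, 38 Lamp5 and 46 Pvalb cells, and 33 Lamp5 and 58 Vip cells, so values on shared days rest on few cells. In counts over single days, a day on which neither family held a read of the gene is neither higher nor lower. A day not counted as higher was therefore not always lower.

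The 3 marker genes of the family, Lamp5, Ndnf and Gad1, were all found in it, and only Lamp5 set most of its cells apart. Lamp5 itself (chr2:136052239-136069917, plus strand, all coordinates on GRCm38) reached 967 CPM in Lamp5, against 2.92 CPM in Sst, 1.15 CPM in Pvalb and 6.89 CPM in Vip cells. The counting interval of the Lamp5 family was 962 to 973 CPM, and those of the other families were 2.76 to 3.08 CPM in Sst, 1.06 to 1.26 CPM in Pvalb and 6.53 to 7.27 CPM in Vip cells. The log2 differences were 7.95 against Sst, 8.81 against Pvalb and 6.94 against Vip cells. Over single Lamp5 cells the level ran from 0 to 2651 CPM with a median of 924 CPM, whereas the median was 0 in each of the Sst, Pvalb and Vip families. Most Lamp5 cells thus lay apart from the others: 58 of 90 Lamp5 cells lay above the highest Sst cell, 71 above the highest Pvalb cell and 67 above the highest Vip cell, whereas 11 Lamp5 cells held no read of the gene. At equal depth a read was seen in 87.5% of Lamp5, against 9.28% of Sst, 5.49% of Pvalb and 12.1% of Vip cells, with intervals of 78.7 to 93.6% in Lamp5, 5.91 to 13.7% in Sst, 3.11 to 8.90% in Pvalb and 7.32 to 18.4% in Vip cells. On single recording days the Lamp5 cells were higher on 13 of 14 days shared with Sst, 20 of 24 shared with Pvalb and 15 of 16 shared with Vip cells.

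Ndnf, which encodes a secreted neuron-derived factor used to mark layer 1 interneurons, marked only some cells of the family. Its summed level was 265.01 CPM in Lamp5, against 21.2 CPM in Sst, 0.603 CPM in Pvalb and 0.178 CPM in Vip cells (chr6:65671590-65712326, plus strand), with log2 differences of 3.58 against Sst, 7.37 against Pvalb and 7.82 against Vip cells. The median Lamp5 cell had 0 CPM and the highest 4235 CPM, and 38 of 90 cells held a read. A read at equal depth was found in 42.05% of Lamp5, against 7.59% of Sst, 1.83% of Pvalb and 5.37% of Vip cells, and the Lamp5 interval was 31.6 to 53.05%. The family thus held Ndnf-rich cells and many in which the gene was not seen at this depth. Gad1, an enzyme that makes GABA, is shared by all inhibitory neurons (chr2:70553072-70602014, plus strand), and it reached 4398 CPM in Lamp5, against 1375 CPM in Sst, 2448 CPM in Pvalb and 2122 CPM in Vip cells. The log2 differences of Gad1 were 1.68 against Sst, 0.85 against Pvalb and 1.05 against Vip cells, and it was higher on 12 of 14 days shared with Sst, 17 of 24 shared with Pvalb and 13 of 16 shared with Vip cells. Its medians over cells were 2445 CPM in Lamp5 cells, against 1084 CPM in Sst, 1769 CPM in Pvalb and 1401 CPM in Vip cells, so the families overlapped widely. For Gad1 the log2 difference was 0.95 against Vip without 1 Lamp5 Pdlim5_2 cell, 1 of 3 Lamp5 cells whose removal ended the call. The Gad1 call ended against Vip under 4 of the other settings, with values between 0.78 (with equal weight for each day) and 0.90 (on shared days).

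**Figure D1:**
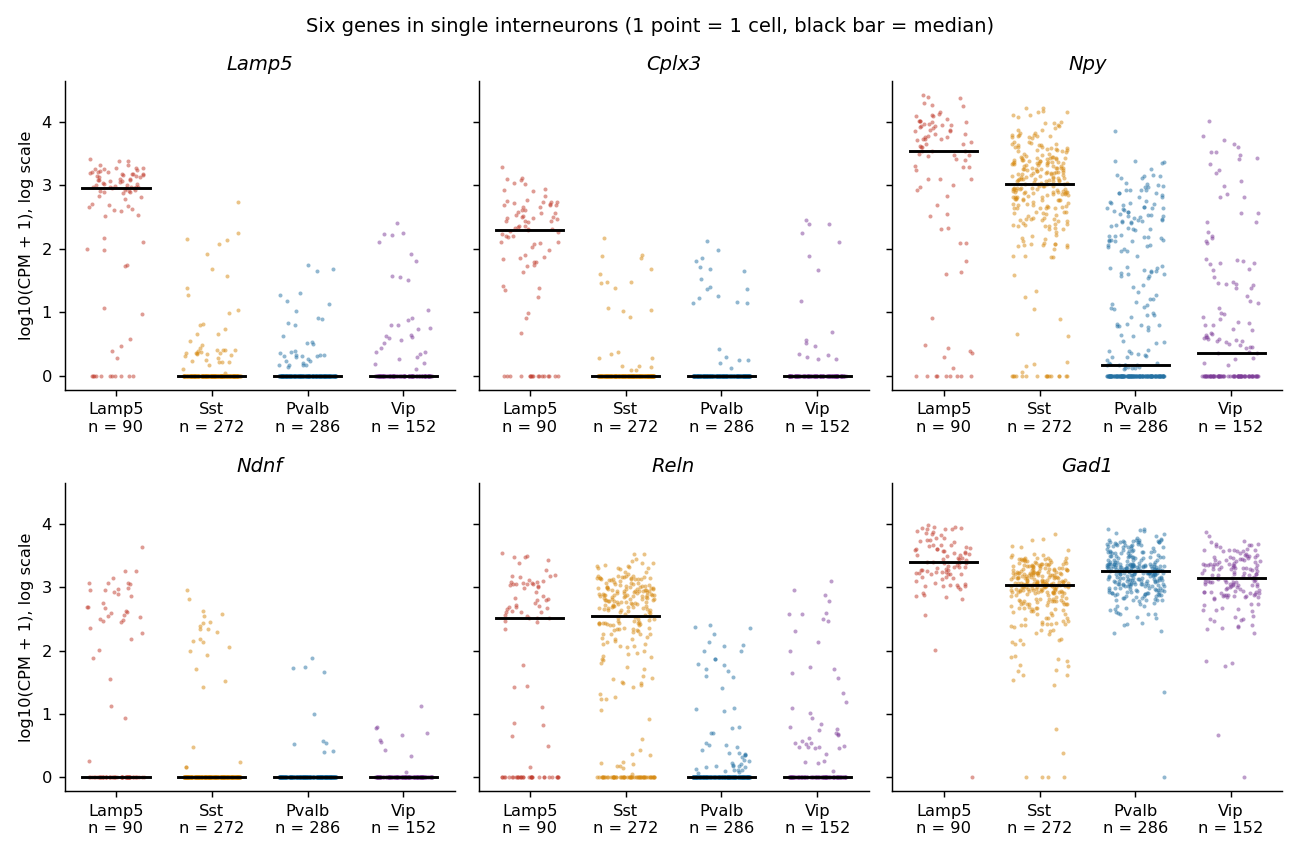
CPM of Lamp5, Cplx3, Npy, Ndnf, Reln and Gad1 in single cells of the Lamp5, Sst, Pvalb and Vip families, on a log10 scale after 1 CPM was added. Each point is 1 cell and each bar is the median of a family. Lamp5 had a median of 924 CPM in Lamp5 cells and 0 in each other family, whereas the points for Gad1 overlapped in all 4 families and Reln was alike in Lamp5 and Sst cells.

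The counts of called genes over the whole transcriptome are the background for all that follows. Of the 10451 measured genes, 756 (7.23%) were higher and 1070 (10.2%) lower in Lamp5 than in Sst cells. Against Pvalb cells 928 (8.88%) were higher and 1315 (12.6%) lower in Lamp5 cells, and against Vip cells 743 (7.11%) were higher and 977 (9.35%) lower. More genes were thus called against Pvalb than against Sst cells, but with cells of shared recording days alone the order was the other way round. There 2052 genes (19.6%) were higher and 1993 (19.1%) lower than in Sst cells, and 1373 (13.1%) were higher and 1825 (17.5%) lower than in Pvalb cells. These sums held only 25 Lamp5 and 26 Sst cells, and 38 Lamp5 and 46 Pvalb cells. The part of the cell number in this order was not tested. Against Vip cells 1195 (11.4%) were higher and 1329 (12.7%) lower on shared days. A smaller share set Lamp5 cells apart from all 3 families at once: 2.11% of the measured genes were higher and 4.01% lower than in each of them. The median log2 difference over all measured genes was -0.01 against Sst, -0.04 against Pvalb and 0.00 against Vip cells. In the gene groups below a count is read beside these shares, and a gene can be measured because of 1 family alone, so the counts describe the groups and are no evidence for them.

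Among the 3907 genes with at least 50 CPM in the Lamp5 family and a read in at least 0.5 of its cells, 93 were higher than in all 3 families, and the 15 whose smallest difference from the 3 was greatest are called leading genes here. That choice used the same levels, so their values are a description. Lamp5 led, followed by Cplx3, a complexin that binds the SNARE complex at release sites (chr9:57599992-57606281, minus strand), with 336 CPM in Lamp5, against 2.49 CPM in Sst, 1.86 CPM in Pvalb and 4.63 CPM in Vip cells. Cplx3 was seen at equal depth in 79.5% of Lamp5, against 3.80% of Sst, 5.49% of Pvalb and 5.37% of Vip cells, and its median Lamp5 cell had 193.8 CPM where the medians of the other families were 0. Gabra5, the alpha5 subunit of the GABA-A receptor (chr7:57407672-57510059, minus strand), had 167.7 CPM in Lamp5, against 9.80 CPM in Sst, 6.27 CPM in Pvalb and 10.4 CPM in Vip cells. Its level was uneven within the family, with a median of 10.9 CPM and an upper quartile of 259.96 CPM, and the highest single value of all was 1121 CPM in a Sst cell. Sv2c, a synaptic vesicle glycoprotein, had 411 CPM in Lamp5, against 37.3 CPM in Sst, 37.4 CPM in Pvalb and 28.3 CPM in Vip cells. Sv2c log2 differences were 3.43 against Sst, 3.43 against Pvalb and 3.81 against Vip cells. The 3 differed in reach: Sv2c was read at equal depth in 79.5% of Lamp5 cells but also in 61.2% of Sst, 63.004% of Pvalb and 52.3% of Vip cells, so that it was set apart by level, whereas Cplx3 was set apart by the share of cells that held it.

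Other leading genes encode channels, receptors and enzymes of signalling. Cacna2d1, the alpha2delta subunit of voltage-gated calcium channels to which gabapentin binds, had 351 CPM in Lamp5, against 3.89 CPM in Sst, 0.422 CPM in Pvalb and 63.6 CPM in Vip cells, so that Vip cells came nearest to Lamp5 cells. Fgf13, an intracellular member of the fibroblast growth factor family that binds sodium channels, had 629.6 CPM in Lamp5, against 97.1 CPM in Sst, 49.3 CPM in Pvalb and 98.3 CPM in Vip cells, with a median of 223.3 CPM in Lamp5 cells and 0 in each other family. For Chrna7, the alpha7 nicotinic acetylcholine receptor subunit, the levels were 115.8 CPM in Lamp5, against 8.36 CPM in Sst, 9.71 CPM in Pvalb and 22.8 CPM in Vip cells. Each of these was called against all 3 families. Nyap2, a neuronal adaptor of phosphoinositide 3-kinase, showed log2 differences of 3.11 against Sst, 3.87 against Pvalb and 2.85 against Vip cells. Those of Pip5k1b, a kinase that makes the membrane lipid PIP2 from its precursor, were 2.13 against Sst, 2.19 against Pvalb and 2.45 against Vip cells. Dgat2, an enzyme of triglyceride synthesis, had 2.13 against Sst, 2.31 against Pvalb and 2.21 against Vip cells. On single days Dgat2 was higher on 6 and lower on 5 of 14 days shared with Sst. It was higher on 13 and lower on 8 of 24 days shared with Pvalb, and higher on 11 and lower on 5 of 16 shared with Vip cells. With every recording day weighted equally its difference from Sst was 0.97.

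Structural and matrix proteins made up most of the remainder. Hapln1, a link protein that ties hyaluronan to proteoglycans, had 202.8 CPM in Lamp5, against 3.63 CPM in Sst, 34.01 CPM in Pvalb and 11.5 CPM in Vip cells, and its highest single value lay in a Pvalb cell (2104 CPM). Mmp17, a membrane-anchored metalloproteinase, had 154.6 CPM in Lamp5, against 24.3 CPM in Sst, 9.95 CPM in Pvalb and 25.8 CPM in Vip cells. The slow skeletal muscle troponin T gene Tnnt1 had 95.7 CPM in Lamp5, against 0.974 CPM in Sst, 0.343 CPM in Pvalb and 8.67 CPM in Vip cells. For Tnnt1 the log2 difference was 4.003 against Vip without 1 Vip Mybpc1_3 cell, which held 43.6% of the Vip reads. Lmo7, a LIM-domain protein, had log2 differences of 2.86 against Sst, 3.06 against Pvalb and 2.53 against Vip cells. A830036E02Rik had 5.37 against Sst, 2.64 against Pvalb and 2.47 against Vip cells; it is annotated as an antisense transcript, and its reads cannot be told apart from those of a gene on the other strand because the library preparation does not record strand. The A830036E02Rik call ended against Pvalb on shared days (0.54). Among cells of the later recording period alone all 15 leading genes were at least 2-fold higher than in each family. That period held 91.1% of the Lamp5 and 96.1% of the Vip cells by which the genes were chosen. The value is therefore no separate support for them.

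The reverse list took the 3050 genes with at least 50 CPM in each of the Sst, Pvalb and Vip families and a read in at least 0.5 of the cells of each, of which 42 were lower in Lamp5 cells than in all 3. Again the 15 lowest are described, not tested. Cntn6, a contactin of the immunoglobulin superfamily that acts in axon contact, had 10.5 CPM in Lamp5, against 100.5 CPM in Sst, 82.8 CPM in Pvalb and 173.7 CPM in Vip cells. A read of Cntn6 at equal depth was found in 12.5% of Lamp5, against 49.8% of Sst, 48.4% of Pvalb and 53.7% of Vip cells, so most Lamp5 cells showed none. For Cntn6 the log2 difference was -3.73 against Sst, -3.46 against Pvalb and -4.52 against Vip without 1 Lamp5 Pdlim5_2 cell, which held 37.8% of its Lamp5 reads. Its relative Cntn4 had 24.3 CPM in Lamp5, against 176.3 CPM in Sst, 87.8 CPM in Pvalb and 270.2 CPM in Vip cells. In Lamp5 cells Cntn4 was lower on 12 of 14 days shared with Sst, 13 of 24 shared with Pvalb and 16 of 16 shared with Vip cells. Stac2, an adaptor of voltage-gated calcium channels, had 12.1 CPM in Lamp5, against 110.8 CPM in Sst, 149.2 CPM in Pvalb and 75.6 CPM in Vip cells. Stac2 log2 differences were -3.09 against Sst, -3.52 against Pvalb and -2.55 against Vip cells. For Stac2 the log2 difference was -4.09 against Sst, -4.52 against Pvalb and -3.55 against Vip without 1 Lamp5 Slc35d3 cell, which held 54.7% of its Lamp5 reads. For both genes the difference was thus greater without the single cell.

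Further low genes concern calcium handling, cyclic nucleotides and adhesion. Slc24a2, a sodium/calcium-potassium exchanger that extrudes calcium, had 37.1 CPM in Lamp5, against 296 CPM in Sst, 343 CPM in Pvalb and 147.7 CPM in Vip cells. Slc24a2 medians over cells were 0.695 CPM in Lamp5 cells, against 193.6 CPM in Sst, 292 CPM in Pvalb and 43.1 CPM in Vip cells. Pde8b, a phosphodiesterase that degrades cAMP, had 10.3 CPM in Lamp5, against 61.96 CPM in Sst, 52.9 CPM in Pvalb and 83.1 CPM in Vip cells. Dmd, which encodes dystrophin, had 38.8 CPM in Lamp5, against 289 CPM in Sst, 148.7 CPM in Pvalb and 105.8 CPM in Vip cells. The Dmd call ended against Vip with equal weight for each cell (-0.96) and with equal weight for each day (-0.73). Ntm, an adhesion protein of the IgLON family, had 92.1 CPM in Lamp5, against 453 CPM in Sst, 347 CPM in Pvalb and 304 CPM in Vip cells. Ntm log2 differences were -2.29 against Sst, -1.90 against Pvalb and -1.71 against Vip cells. Pcdh7, a protocadherin, had 59.8 CPM in Lamp5, against 255.3 CPM in Sst, 196.9 CPM in Pvalb and 184.7 CPM in Vip cells, and it was low in only some t-types of the family. The Pcdh7 call ended against Sst on shared days (-0.45), against Pvalb without the Lamp5 Slc35d3 cells (-0.93) and with equal weight for each day (-0.88), and against Vip under 3 of the other settings, with values between -0.84 (without the Lamp5 Slc35d3 cells) and -0.52 (on shared days). Epdr1, an ependymin-related protein, had 53.6 CPM in Lamp5, against 311 CPM in Sst, 180.8 CPM in Pvalb and 244.5 CPM in Vip cells and was lower on 11 of 14 days shared with Sst, 13 of 24 shared with Pvalb and 16 of 16 shared with Vip cells. The Epdr1 call ended against Pvalb on shared days (-0.94).

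Of the other low genes, Endod1 had log2 differences of -1.60 against Sst, -1.57 against Pvalb and -1.84 against Vip cells. Those of Csmd1, a large membrane protein of the complement-control type, were -1.84 against Sst, -1.49 against Pvalb and -1.65 against Vip cells. The Csmd1 call ended against Pvalb without the Lamp5 Slc35d3 cells (-0.90), and against Vip on shared days (-0.59). Elovl6, a fatty-acid elongase, had -1.65 against Sst, -1.69 against Pvalb and -1.50 against Vip cells, and Zdhhc20, a palmitoyltransferase, had -1.70 against Sst, -1.47 against Pvalb and -1.46 against Vip cells. The Zdhhc20 call ended against Pvalb with equal weight for each day (-0.92), and against Vip on shared days (-0.53). The Elovl6 call ended against Sst under 3 of the other settings, with values between -0.98 (with equal weight for each cell) and -0.18 (on shared days), and against Vip with equal weight for each cell (-0.997). Ifitm10 had 10.03 CPM in Lamp5, against 109.8 CPM in Sst, 133.7 CPM in Pvalb and 72.6 CPM in Vip cells. Tmem178 had 30.2 CPM in Lamp5, against 99.4 CPM in Sst, 110.9 CPM in Pvalb and 90.5 CPM in Vip cells. The Tmem178 call ended against Vip on shared days (-0.77).

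**Figure D2:**
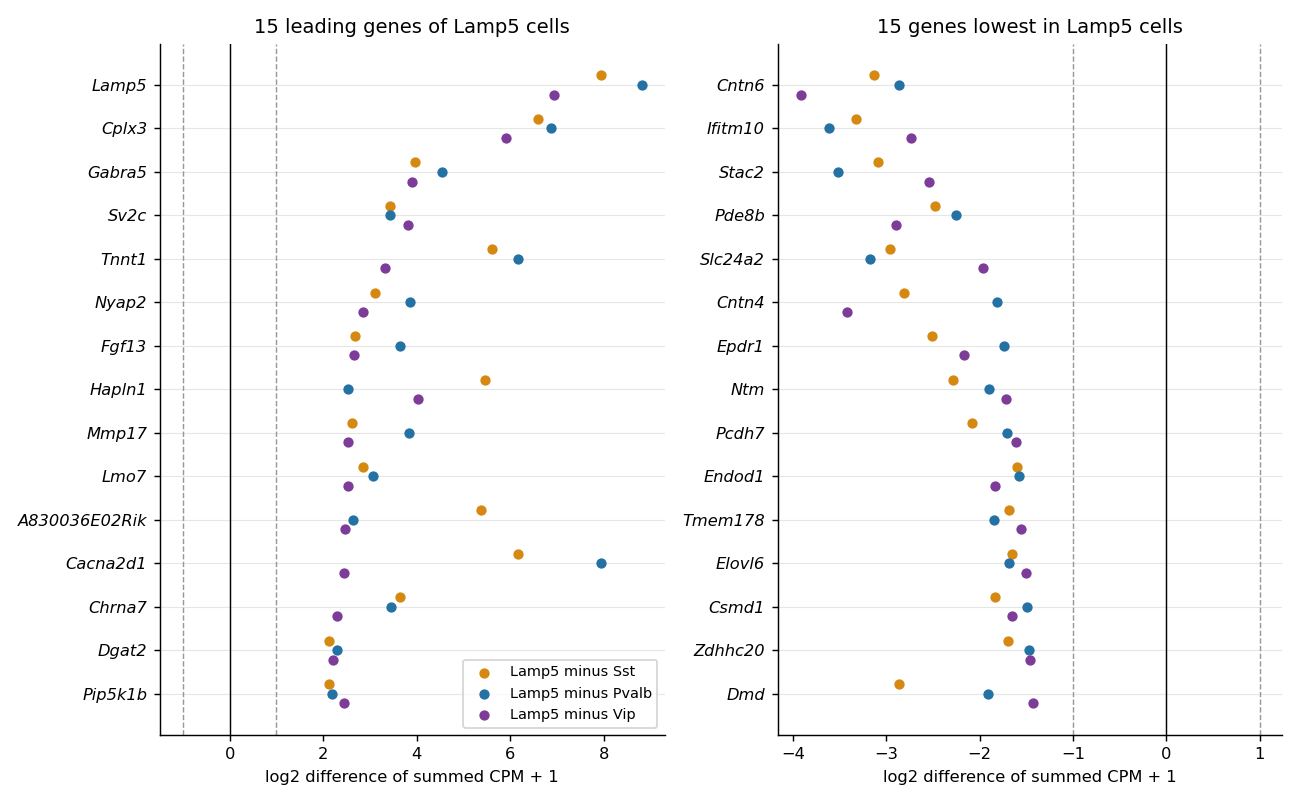
Log2 differences of summed levels (CPM + 1) of Lamp5 cells minus Sst, Pvalb and Vip cells for the 15 leading genes (left) and the 15 lowest genes (right). Each gene has 3 points, 1 for each family set against Lamp5, and the dashed lines mark a 2-fold difference. All points of the leading genes lie right of the dashed line and all points of the lowest genes lie left of it, since the genes were chosen by these values.

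In the factors that mark the origin of interneurons the Lamp5 cells were nearer to the Vip than to the Sst and Pvalb families. Of 12 measured CGE-associated factors 9 were higher and 2 lower than in Sst cells, 11 were higher and 0 lower than in Pvalb cells, and 3 were higher and 2 lower than in Vip cells. Their median log2 differences were 3.67 against Sst, 3.67 against Pvalb and -0.58 against Vip cells. Adarb2, an RNA-editing-enzyme relative that marks CGE-derived neurons, had 1011 CPM in Lamp5, against 1.72 CPM in Sst, 3.30 CPM in Pvalb and 1558 CPM in Vip cells. Prox1, a homeodomain factor of the same lineage, had 191.2 CPM in Lamp5, against 0.138 CPM in Sst, 0.345 CPM in Pvalb and 329 CPM in Vip cells. Both were high in Lamp5 and Vip cells and near 0 in Sst and Pvalb cells. The 3 factors higher than in every other family were Id2, Nfib and Nfia. Id2, an inhibitor of basic helix-loop-helix factors, had 498 CPM in Lamp5, against 37.001 CPM in Sst, 79.5 CPM in Pvalb and 128.9 CPM in Vip cells. Id2 medians over cells were 330.4 CPM in Lamp5 cells, against 0 CPM in Sst, 3.93 CPM in Pvalb and 4.38 CPM in Vip cells. Nfib, of the nuclear factor I family, had 408 CPM in Lamp5, against 5.19 CPM in Sst, 49.7 CPM in Pvalb and 173.4 CPM in Vip cells. Its relative Nfia had 65.98 CPM in Lamp5, against 4.45 CPM in Sst, 6.73 CPM in Pvalb and 17.9 CPM in Vip cells, but this level came mostly from the Lamp5 Slc35d3 cells, without which the difference from Vip was -0.23 in place of 1.82. The Nfia call ended against Vip on shared days (0.88). Another relative, Nfix, was shared with Vip cells, with 211.7 CPM in Lamp5, against 5.69 CPM in Sst, 2.02 CPM in Pvalb and 136.7 CPM in Vip cells.

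Most measured MGE factors were lower in Lamp5 cells than in Sst and Pvalb cells. Of 6 measured MGE-associated factors, 0 were higher and 4 lower than in Sst cells, and 0 higher and 4 lower than in Pvalb cells. Against Vip cells 1 was higher and 3 lower. Lhx6, the LIM-homeodomain factor that specifies MGE-derived interneurons, had 0.0781 CPM in Lamp5, against 138.1 CPM in Sst, 115.3 CPM in Pvalb and 0.0914 CPM in Vip cells. Lhx6 was read at equal depth in 1.14% of Lamp5, against 64.1% of Sst, 61.2% of Pvalb and 2.01% of Vip cells. Cells of the Lamp5 Lhx6 type had been left out, so their absence is part of this value. Sox6, which acts downstream of Lhx6, had 0.355 CPM in Lamp5, against 135.7 CPM in Sst, 136.2 CPM in Pvalb and 0.869 CPM in Vip cells. Satb1, a chromatin organiser of MGE-derived cells, had 2.30 CPM in Lamp5, against 489.9 CPM in Sst, 324 CPM in Pvalb and 30.6 CPM in Vip cells. Etv1, an ETS factor, had 5.71 CPM in Lamp5, against 22.6 CPM in Sst, 24.9 CPM in Pvalb and 30.98 CPM in Vip cells. For Etv1 the log2 difference was -1.57 against Vip without 1 Vip Mybpc1_3 cell, which held 40.5% of the Vip reads. The Etv1 call ended against Pvalb on shared days (-0.82). Satb1 and Etv1 were the 2 of 6 measured factors that were lower than in all 3 families, and Lhx6 and Sox6 were alike in Lamp5 and Vip cells. Lhx8, a LIM-homeodomain factor of the same lineage, had no read in any Lamp5 cell. With 3 reads over the family as the floor, its level was at least 31.4-fold lower than the 0.669 CPM of Sst cells. That Sst level came from 2 cells, too few to show that Lamp5 cells hold less of the gene. Among the 6 measured factors common to forebrain GABA neurons, Dlx6 had log2 differences of -0.46 against Sst, -0.43 against Pvalb and -0.78 against Vip cells, while Dlx6os1, the transcript from its opposite strand, had 2.67 against Sst, 2.12 against Pvalb and 0.16 against Vip cells; the reads of overlapping genes cannot be told apart because the library preparation does not record strand.

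Gad1 and Gad2, which make GABA, were both highest in Lamp5 cells. Gad2, the membrane-associated enzyme of GABA synthesis, had 2351 CPM in Lamp5, against 789 CPM in Sst, 444 CPM in Pvalb and 774 CPM in Vip cells. Gad2 medians over cells were 1259 CPM in Lamp5 cells, against 554 CPM in Sst, 309 CPM in Pvalb and 403 CPM in Vip cells. It was higher on 11 of 14 days shared with Sst, 21 of 24 shared with Pvalb and 12 of 16 shared with Vip cells. Slc32a1, which loads GABA into vesicles, differed less, with 81.5 CPM in Lamp5, against 60.4 CPM in Sst, 53.3 CPM in Pvalb and 75.9 CPM in Vip cells. Slc12a5, the potassium-chloride cotransporter that sets the chloride gradient, had log2 differences of -0.62 against Sst, -0.39 against Pvalb and -0.34 against Vip cells and was not called. Within the family both synthesis genes were highest in the Lamp5 Slc35d3 type, which held 5174 CPM of Gad1 and 2871 CPM of Gad2. The Lamp5 Egln3_1 type held 1433 CPM of Gad1 and 973 CPM of Gad2.

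Npy, which encodes neuropeptide Y, was the one peptide gene higher in Lamp5 cells than in all 3 families. Npy (chr6:49822710-49829507, plus strand) reached 6042 CPM in Lamp5, against 1875 CPM in Sst, 203.1 CPM in Pvalb and 367 CPM in Vip cells, and its log2 differences were 1.69 against Sst, 4.89 against Pvalb and 4.04 against Vip cells. The Npy call ended against Sst on shared days (0.57). Single Lamp5 cells ran from 0 to 26522 CPM with a median of 3473 CPM, against medians of 1033 CPM in Sst, 0.491 CPM in Pvalb and 1.25 CPM in Vip cells. Sst cells also held Npy widely. Npy was read at equal depth in 87.5% of Lamp5, against 91.98% of Sst, 43.6% of Pvalb and 45.6% of Vip cells. The call against Sst also ended without the Lamp5 Slc35d3 cells, with a log2 difference of 0.37, and the Lamp5 cells were higher on 9 of 14 days shared with Sst. Of 16 measured peptide and secretory-granule genes, 2 were higher and 9 lower than in Sst cells, 3 higher and 5 lower than in Pvalb cells, and 3 higher and 7 lower than in Vip cells. Penk, Tac1 and Chga were lower than in all 3 families. Penk, the precursor of enkephalins, had 1.31 CPM in Lamp5, against 42.2 CPM in Sst, 13.7 CPM in Pvalb and 1208 CPM in Vip cells. Penk log2 differences were -4.23 against Sst, -2.68 against Pvalb and -9.03 against Vip cells. For Penk the log2 difference was -1.66 against Pvalb without 1 Pvalb Gabrg1 cell, which held 54.5% of the Pvalb reads. Tac1, the precursor of substance P, had 1.38 CPM in Lamp5, against 32.9 CPM in Sst, 596 CPM in Pvalb and 4.22 CPM in Vip cells. Tac1 log2 differences were -3.84 against Sst, -7.97 against Pvalb and -1.13 against Vip cells. For Tac1 the log2 difference was -4.74 against Sst, -8.88 against Pvalb and -2.04 against Vip without 1 Lamp5 Pdlim5_2 cell, which held 80.4% of its Lamp5 reads, -2.52 against Sst without 1 Sst Pvalb Calb2 cell, which held 61.9% of the Sst reads, and -0.07 against Vip without 1 Vip Mybpc1_2 cell, which held 64.8% of the Vip reads. The Tac1 call ended against Vip under 4 of the other settings, with values between -0.96 (with equal weight for each cell) and 1.68 (on shared days). Chga, chromogranin A of dense-core granules, had 88.4 CPM in Lamp5, against 289 CPM in Sst, 229.2 CPM in Pvalb and 235.1 CPM in Vip cells. The Chga call ended against Pvalb with equal weight for each cell (-0.93) and on shared days (-0.998), and against Vip with equal weight for each cell (-0.94) and on shared days (-0.95). The peptides that name the other families were low in Lamp5 cells, with 6.76 CPM of Sst and 8.02 CPM of Vip.

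Reln, which encodes the secreted matrix protein reelin, was shared with Sst cells. Its level was 498 CPM in Lamp5, against 529.6 CPM in Sst, 8.84 CPM in Pvalb and 36.3 CPM in Vip cells, and the log2 difference from Sst was -0.09. In the 88 Lamp5 cells thinned to equal depth the secreted factors fell into partly separate sets. Npy and Ndnf were both read in 33 cells, Npy alone in 44, Ndnf alone in 4 and neither in 7. Of the cells with Ndnf, 32 also held Reln and 5 did not, and 21 cells held Reln without Ndnf. Npy was read with Reln in 43 cells, without it in 34, and Reln without Npy in 10. So most cells with Ndnf also held Reln and Npy, whereas more of the cells with Npy lacked Ndnf than held it. A read missed at this depth would move a cell between these sets.

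Of 23 measured genes of the machinery of vesicle release, 2 were higher and 2 lower than in Sst cells, 4 higher and 4 lower than in Pvalb cells, and 3 higher and 4 lower than in Vip cells. Cplx3 and Sv2c, both leading genes, were the 2 of these that were higher than in all 3 families. Vamp1, a vesicle SNARE of fast synapses, had 59.2 CPM in Lamp5, against 115.7 CPM in Sst, 389.9 CPM in Pvalb and 97.1 CPM in Vip cells. Cplx1, another complexin, had 479 CPM in Lamp5, against 695 CPM in Sst, 1381 CPM in Pvalb and 384 CPM in Vip cells, an order unlike that of Cplx3.

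**Figure D3:**
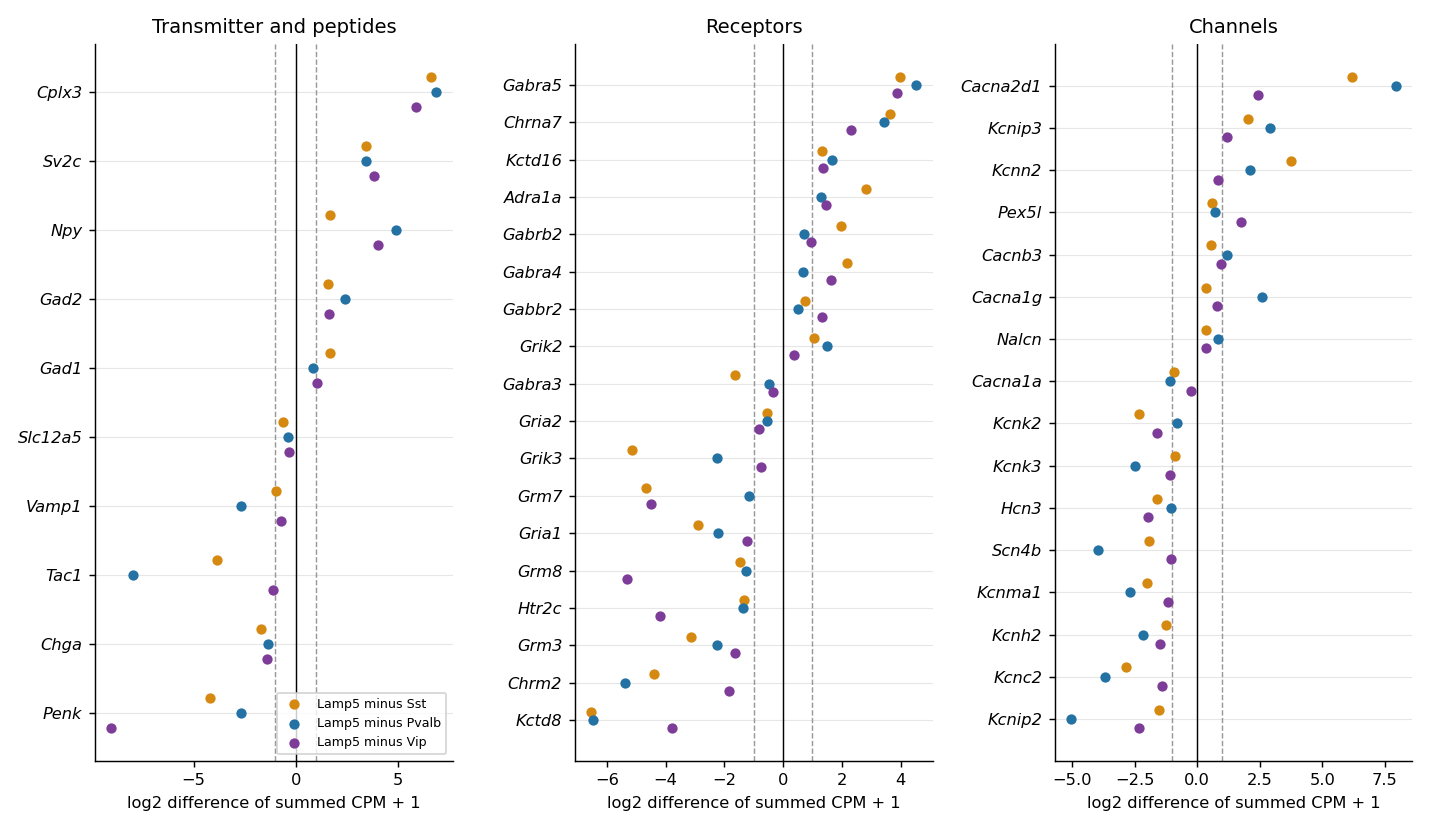
Log2 differences of summed levels (CPM + 1) of Lamp5 cells minus Sst, Pvalb and Vip cells for the named genes of transmitter and peptide lists (left), receptor lists (middle) and channel lists (right). Each gene has 3 points and the dashed lines mark a 2-fold difference. Npy, Gad2, Cplx3, Sv2c, Gabra5, Chrna7, Kctd16, Adra1a, Cacna2d1 and Kcnip3 are among those right of the line against all 3 families. Among those left of it are Penk, Chga, Tac1, Gria1, Kctd8, Grm3, Grm7, Grm8, Chrm2, Htr2c, Kcnc2, Kcnip2, Kcnh2, Kcnma1, Hcn3 and Scn4b.

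Among receptors for GABA the family stood out in a few subunits. Of 11 measured GABA-A receptor subunits, 5 were higher and 1 lower than in Sst cells, 3 higher and 2 lower than in Pvalb cells, and 3 higher and 1 lower than in Vip cells, and Gabra5 was the one higher than in all 3. Gabra4, the alpha4 subunit, had 273.8 CPM in Lamp5, against 59.9 CPM in Sst, 169.3 CPM in Pvalb and 87.6 CPM in Vip cells. Gabrb2, the beta2 subunit, had 423 CPM in Lamp5, against 106.3 CPM in Sst, 257.5 CPM in Pvalb and 220.1 CPM in Vip cells. Gabrb2 log2 differences were 1.98 against Sst, 0.71 against Pvalb and 0.94 against Vip cells. Gabra3, the alpha3 subunit, was low, with 29.8 CPM in Lamp5, against 95.7 CPM in Sst, 41.8 CPM in Pvalb and 37.9 CPM in Vip cells. Gabra3 log2 differences were -1.65 against Sst, -0.48 against Pvalb and -0.34 against Vip cells. For Gabra3 the log2 difference was -2.27 against Sst without 1 Lamp5 Slc35d3 cell, which held 37.1% of its Lamp5 reads. Gabrd, the delta subunit of extrasynaptic receptors that neurogliaform cells are known for, was not the highest here, with 199.5 CPM in Lamp5, against 106.5 CPM in Sst, 513 CPM in Pvalb and 26.3 CPM in Vip cells.

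GABA-B receptors are joined by auxiliary KCTD proteins, and 2 of these set the family apart in opposite directions. Kctd16 had 700.1 CPM in Lamp5, against 281.5 CPM in Sst, 217.9 CPM in Pvalb and 270.7 CPM in Vip cells. Kctd16 medians over cells were 659 CPM in Lamp5 cells, against 217.9 CPM in Sst, 164.3 CPM in Pvalb and 68.9 CPM in Vip cells. It was higher on 12 of 14 days shared with Sst, 20 of 24 shared with Pvalb and 12 of 16 shared with Vip cells, and every t-type of the family held at least 496 CPM. Kctd8 was at the other end, with 0.206 CPM in Lamp5, against 110.7 CPM in Sst, 106.4 CPM in Pvalb and 15.7 CPM in Vip cells and a read at equal depth in 1.14% of Lamp5, against 59.1% of Sst, 63.7% of Pvalb and 10.7% of Vip cells. The receptor subunit Gabbr2 had 115.03 CPM in Lamp5, against 68.2 CPM in Sst, 79.6 CPM in Pvalb and 45.5 CPM in Vip cells, and its log2 differences were 0.75 against Sst, 0.52 against Pvalb and 1.32 against Vip cells.

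Several metabotropic glutamate receptors were low in Lamp5 cells. Grm7 had 6.46 CPM in Lamp5, against 188.4 CPM in Sst, 15.8 CPM in Pvalb and 166.3 CPM in Vip cells. Grm7 was lower on 11 of 14 days shared with Sst, 8 of 24 shared with Pvalb and 14 of 16 shared with Vip cells. It was higher on 2 of the days shared with Sst, 6 of those shared with Pvalb and 1 of those shared with Vip cells. The log2 differences of Grm7 were -4.67 against Sst, -1.18 against Pvalb and -4.49 against Vip cells. For Grm7 the log2 difference was -0.84 against Pvalb without 1 Pvalb Calb1_1 cell, which held 22.9% of the Pvalb reads. The Grm7 call ended against Pvalb under 4 of the other settings, with values between -0.65 (with a pseudocount of 10 CPM) and -0.12 (on shared days). Grm3 had 2.70 CPM in Lamp5, against 31.5 CPM in Sst, 16.6 CPM in Pvalb and 10.6 CPM in Vip cells. Grm3 log2 differences were -3.13 against Sst, -2.25 against Pvalb and -1.65 against Vip cells. For Grm3 the log2 difference was -3.79 against Sst, -2.90 against Pvalb and -2.31 against Vip without 1 Lamp5 Pdlim5_2 cell, which held 50.4% of its Lamp5 reads, and -0.57 against Vip without 1 Vip Serpinf1_2 cell, which held 57.9% of the Vip reads. The Grm3 call ended against Sst on shared days (0.40), and against Vip under 3 of the other settings, with values between -0.96 (without the Lamp5 Slc35d3 cells) and -0.26 (with equal weight for each day). Grm8 had 1.91 CPM in Lamp5, against 6.95 CPM in Sst, 5.97 CPM in Pvalb and 115.6 CPM in Vip cells. Grm8 log2 differences were -1.45 against Sst, -1.26 against Pvalb and -5.32 against Vip cells. For Grm8 the log2 difference was -2.27 against Sst, -2.08 against Pvalb and -6.14 against Vip without 1 Lamp5 Pdlim5_1 cell, which held 66.2% of its Lamp5 reads, and 0.94 against Pvalb without 1 Pvalb Calb1_2 cell, which held 91.5% of the Pvalb reads. The Grm8 call ended against Sst under 3 of the other settings, with values between -0.995 (without the Lamp5 Slc35d3 cells) and -0.51 (with a pseudocount of 10 CPM), and against Pvalb under 5 of the other settings, with values between -0.81 (without the Lamp5 Slc35d3 cells) and 2.70 (on shared days). Leaving out 1 cell thus ended the calls of Grm7 and Grm8 against Pvalb and that of Grm3 against Vip. Grm5 was not lower in Lamp5 cells, with 411 CPM in Lamp5, against 247.6 CPM in Sst, 316 CPM in Pvalb and 170.5 CPM in Vip cells.

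Of 13 measured genes of ionotropic glutamate receptors, 2 were higher and 4 lower than in Sst cells, 2 higher and 3 lower than in Pvalb cells, and 3 higher and 2 lower than in Vip cells. Gria1, which encodes the AMPA subunit GluA1, had 134.1 CPM in Lamp5, against 1001 CPM in Sst, 621 CPM in Pvalb and 318 CPM in Vip cells. Gria1 medians over cells were 13.01 CPM in Lamp5 cells, against 824 CPM in Sst, 488 CPM in Pvalb and 277.4 CPM in Vip cells. It was lower on 11 of 14 days shared with Sst, 23 of 24 shared with Pvalb and 15 of 16 shared with Vip cells, and it was the only gene of the list that was lower than in all 3 families. Gria2, whose subunit makes AMPA receptors impermeable to calcium, was nearer to the others, with 906 CPM in Lamp5, against 1316 CPM in Sst, 1339 CPM in Pvalb and 1583 CPM in Vip cells. Of the kainate receptor subunits, Grik3 had 0.653 CPM in Lamp5, against 57.3 CPM in Sst, 6.93 CPM in Pvalb and 1.78 CPM in Vip cells. The Grik3 call ended against Pvalb with a pseudocount of 10 CPM (-0.67). Grik2 had 452 CPM in Lamp5, against 218.9 CPM in Sst, 159.3 CPM in Pvalb and 353 CPM in Vip cells, with a log2 difference of 1.04 from Sst. For Grik2 the log2 difference was 0.97 against Sst without 1 Lamp5 Egln3_1 cell, 1 of 5 Lamp5 cells whose removal ended the call. The Grik2 call ended against Pvalb on shared days (0.77).

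Receptors for monoamines and acetylcholine differed in both directions. Of 15 measured genes, 6 were higher and 4 lower than in Sst cells, 7 higher and 4 lower than in Pvalb cells, and 5 higher and 7 lower than in Vip cells. Chrna7, described above, and Adra1a, an alpha1 adrenergic receptor for noradrenaline, were among the 3 higher than in all families, and Adra1a had 203.04 CPM in Lamp5, against 27.7 CPM in Sst, 81.7 CPM in Pvalb and 72.98 CPM in Vip cells with medians of 101.7 CPM in Lamp5 cells, against 0 CPM in Sst, 20.5 CPM in Pvalb and 0 CPM in Vip cells. Chrm2, the M2 muscarinic receptor, gave 3 reads in the whole family, a level of 0.0213 CPM (0.00439 to 0.0622 CPM), against 20.7 CPM in Sst, 41.8 CPM in Pvalb and 2.66 CPM in Vip cells. For Chrm2 the log2 difference was -1.05 against Vip without 1 Vip Gpc3 cell, which held 58.1% of the Vip reads. The Chrm2 call ended against Vip with a pseudocount of 10 CPM (-0.34) and on shared days (-0.07). Htr2c, a serotonin receptor, had 3.82 CPM in Lamp5, against 11.2 CPM in Sst, 11.4 CPM in Pvalb and 87.1 CPM in Vip cells. Htr2c log2 differences were -1.33 against Sst, -1.36 against Pvalb and -4.19 against Vip cells. For Htr2c the log2 difference was -1.93 against Sst, -1.96 against Pvalb and -4.79 against Vip without 1 Lamp5 Egln3_1 cell, which held 43.04% of its Lamp5 reads, and -0.08 against Sst without 1 Sst Tac2 cell, which held 63.6% of the Sst reads. The Htr2c call ended against Sst under 4 of the other settings, with values between -0.61 (with a pseudocount of 10 CPM) and -0.01 (with equal weight for each day), and against Pvalb under 5 of the other settings, with values between -0.81 (with equal weight for each cell) and -0.38 (with equal weight for each day). The ionotropic serotonin receptor Htr3a, which defines many CGE-derived cells, was at 47.2 CPM in Lamp5, against 0.961 CPM in Sst, 0.0234 CPM in Pvalb and 815 CPM in Vip cells, so in this family it was above the MGE-derived families and well below Vip cells.

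Of 10 measured peptide receptors, 6 were higher and 3 lower than in Sst cells, 5 higher and 2 lower than in Pvalb cells, and 1 higher and 4 lower than in Vip cells. Sstr2, a receptor for somatostatin, had 33.99 CPM in Lamp5, against 4.13 CPM in Sst, 7.49 CPM in Pvalb and 8.55 CPM in Vip cells, but only 21.6% of Lamp5 cells showed a read at equal depth. It was higher on 2 and lower on 2 of 14 days shared with Sst. On the days shared with Pvalb the difference was -0.39. For Sstr2 the log2 difference was 2.78 against Pvalb without 1 Pvalb Vipr2_2 cell, which held 45.5% of the Pvalb reads, and 2.51 against Vip without 1 Vip Gpc3 cell, which held 40.5% of the Vip reads. Oprd1, the delta opioid receptor, had 0.0355 CPM in Lamp5, against 32.6 CPM in Sst, 60.7 CPM in Pvalb and 1.79 CPM in Vip cells. Oprd1 log2 differences were -5.02 against Sst, -5.90 against Pvalb and -1.43 against Vip cells. For Oprd1 the log2 difference was -0.32 against Vip without 1 Vip Mybpc1_2 cell, which held 83.6% of the Vip reads. The Oprd1 call ended against Vip with a pseudocount of 10 CPM (-0.23) and on shared days (-0.01). Oprk1, the kappa opioid receptor, had no read in any Lamp5 cell, and its level was at least 999-fold lower than the 21.3 CPM of Sst cells, where 3 reads over the family stand for the floor. Hcrtr2, an orexin receptor, had 35.03 CPM in Lamp5, against 3.29 CPM in Sst, 1.47 CPM in Pvalb and 24.9 CPM in Vip cells. For Hcrtr2 the log2 difference was 5.17 against Pvalb without 1 Pvalb Calb1_1 cell, which held 99.7% of the Pvalb reads. Adcyap1r1, the PACAP receptor, had 160.3 CPM in Lamp5, against 266.9 CPM in Sst, 162.9 CPM in Pvalb and 165.9 CPM in Vip cells and was not called.

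Among potassium channels the family stood out by low Kcnc2 and Kcnip2. Of 34 measured voltage-gated potassium channel genes and their partners, 6 were higher and 12 lower than in Sst cells, 8 higher and 10 lower than in Pvalb cells, and 4 higher and 8 lower than in Vip cells, with median log2 differences of -0.16 against Sst, -0.08 against Pvalb and 0.02 against Vip cells. Kcnc2, a Kv3 channel that allows fast repolarisation, had 46.5 CPM in Lamp5, against 345 CPM in Sst, 611 CPM in Pvalb and 123.6 CPM in Vip cells. Kcnc2 medians over cells were 0 CPM in Lamp5 cells, against 219.2 CPM in Sst, 426 CPM in Pvalb and 5.26 CPM in Vip cells. Its log2 differences were -2.86 against Sst, -3.68 against Pvalb and -1.39 against Vip cells. The Kcnc2 call ended against Vip without the Lamp5 Slc35d3 cells (-0.77). Kcnip2, an accessory subunit of Kv4 channels, had 7.87 CPM in Lamp5, against 24.6 CPM in Sst, 291 CPM in Pvalb and 43.4 CPM in Vip cells. The Kcnip2 call ended against Sst with a pseudocount of 10 CPM (-0.95). Kcnip2 was read at equal depth in 7.95% of Lamp5, against 23.2% of Sst, 83.2% of Pvalb and 20.8% of Vip cells. Kcnh2, the ERG channel, had log2 differences of -1.26 against Sst, -2.17 against Pvalb and -1.48 against Vip cells. The Kcnh2 call ended against Sst with a pseudocount of 10 CPM (-0.73) and on shared days (0.65), and against Vip with a pseudocount of 10 CPM (-0.89) and with equal weight for each day (-0.97). Kcnip3, a Kv4 partner and calcium sensor, was the one gene of the list higher than in all 3 families, with 54.9 CPM in Lamp5, against 12.8 CPM in Sst, 6.38 CPM in Pvalb and 23.3 CPM in Vip cells. For Kcnip3 the log2 difference was 0.80 against Vip without 1 Lamp5 Pdlim5_2 cell. The Kcnip3 call ended against Sst with equal weight for each day (0.93), and against Vip under 4 of the other settings, with values between 0.42 (on shared days) and 0.96 (with a pseudocount of 10 CPM).

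Of 12 measured genes of other potassium channels, 4 were higher and 2 lower than in Sst cells, 3 higher and 3 lower than in Pvalb cells, and 1 higher and 4 lower than in Vip cells. Kcnma1, the large-conductance calcium-activated channel, was lower than in all 3, with 34.1 CPM in Lamp5, against 140.6 CPM in Sst, 223.7 CPM in Pvalb and 77.7 CPM in Vip cells. The Kcnma1 call ended against Sst on shared days (-0.50), and against Vip under 6 of the other settings, with values between -0.99 (with a pseudocount of 10 CPM) and -0.38 (on shared days). Kcnn2, a small-conductance calcium-activated channel, was high in the CGE-derived families, with 303 CPM in Lamp5, against 21.7 CPM in Sst, 69.7 CPM in Pvalb and 169.3 CPM in Vip cells. Kcnk2 and Kcnk3, both background leak channels, had log2 differences of -2.32 against Sst, -0.80 against Pvalb and -1.61 against Vip cells for Kcnk2 and of -0.90 against Sst, -2.48 against Pvalb and -1.09 against Vip cells for Kcnk3. For Kcnk3 the log2 difference was -3.99 against Pvalb and -2.60 against Vip without 1 Lamp5 Egln3_1 cell, which held 76.6% of its Lamp5 reads, and -0.92 against Vip without 1 Vip Chat_1 cell, which held 13.1% of the Vip reads. The Kcnk3 call ended against Vip with a pseudocount of 10 CPM (-0.57) and without the Lamp5 Slc35d3 cells (-0.39).

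Of 17 measured calcium channel genes, 2 were higher and 3 lower than in Sst cells, 8 higher and 2 lower than in Pvalb cells, and 1 higher and 3 lower than in Vip cells, and Cacna2d1 was the only one called against all 3. Cacna2d2, the alpha2delta subunit of the MGE-derived families, had 2.19 CPM in Lamp5, against 46.8 CPM in Sst, 67.004 CPM in Pvalb and 1.05 CPM in Vip cells, an order opposite to that of Cacna2d1. Cacna1g, a T-type channel that opens at low voltage, had 96.3 CPM in Lamp5, against 74.3 CPM in Sst, 15.04 CPM in Pvalb and 54.7 CPM in Vip cells, and the beta subunit gene Cacnb3 had 99.7 CPM in Lamp5, against 67.5 CPM in Sst, 43.5 CPM in Pvalb and 50.6 CPM in Vip cells. The Cacnb3 call ended against Pvalb without the Lamp5 Slc35d3 cells (0.84). Cacna1a, the P/Q-type channel of fast synapses, had 37.2 CPM in Lamp5, against 71.7 CPM in Sst, 79.7 CPM in Pvalb and 44.01 CPM in Vip cells. For Cacna1a the log2 difference was -0.98 against Pvalb without 1 Lamp5 Pdlim5_2 cell, 1 of 2 Lamp5 cells whose removal ended the call. The Cacna1a call ended against Pvalb under 5 of the other settings, with values between -0.98 (with median-of-ratios scaling) and -0.15 (on shared days). Of 11 measured sodium and HCN channel genes, 0 were higher and 2 lower than in Sst cells, 2 higher and 5 lower than in Pvalb cells, and 1 higher and 2 lower than in Vip cells. Hcn3, a hyperpolarisation-activated channel, had 13.4 CPM in Lamp5, against 42.7 CPM in Sst, 28.6 CPM in Pvalb and 54.6 CPM in Vip cells. Scn4b, a sodium channel beta subunit, had 2.10 CPM in Lamp5, against 10.6 CPM in Sst, 47.02 CPM in Pvalb and 5.38 CPM in Vip cells. Both were lower than in all 3 families, but the difference of Hcn3 from Pvalb (-1.04) and that of Scn4b from Vip (-1.04) lay close to 2-fold. For Hcn3 the log2 difference was -0.94 against Pvalb without 1 Lamp5 Pdlim5_2 cell, 1 of 6 Lamp5 cells whose removal ended the call, and -0.92 against Pvalb without 1 Pvalb Calb1_1 cell, which held 8.77% of the Pvalb reads. The Hcn3 call ended against Sst on shared days (-0.72), and against Pvalb under 5 of the other settings, with values between -0.9997 (on shared days) and -0.72 (with a pseudocount of 10 CPM). For Scn4b the log2 difference was -2.59 against Sst, -4.63 against Pvalb and -1.72 against Vip without 1 Lamp5 Egln3_1 cell, which held 55.7% of its Lamp5 reads, -0.97 against Vip without 1 Lamp5 Pdlim5_2 cell, 1 of 2 Lamp5 cells whose removal ended the call, and -0.66 against Vip without 1 Vip Serpinf1_2 cell, which held 27.7% of the Vip reads. The Scn4b call ended against Sst with a pseudocount of 10 CPM (-0.77) and with equal weight for each day (-0.93), and against Vip under 4 of the other settings, with values between -0.68 (in cells with at least 500000 counts) and -0.35 (with a pseudocount of 10 CPM). Nalcn, the sodium leak channel, had log2 differences of 0.35 against Sst, 0.83 against Pvalb and 0.36 against Vip cells, and Pex5l, an HCN channel partner, had 0.60 against Sst, 0.70 against Pvalb and 1.76 against Vip cells.

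Nitric oxide signals through a soluble guanylyl cyclase, and both main subunits of that enzyme were low in Lamp5 cells. Of 9 measured genes of this pathway, 2 were higher and 4 lower than in Sst cells, 3 higher and 4 lower than in Pvalb cells, and 3 higher and 3 lower than in Vip cells. Gucy1a1, the alpha subunit, had 1.59 CPM in Lamp5, against 24.3 CPM in Sst, 67.2 CPM in Pvalb and 57.3 CPM in Vip cells. Its log2 differences were -3.29 against Sst, -4.72 against Pvalb and -4.49 against Vip cells. For Gucy1a1 the log2 difference was -4.26 against Sst, -5.70 against Pvalb and -5.47 against Vip without 1 Lamp5 Pdlim5_2 cell, which held 80.4% of its Lamp5 reads. Gucy1b1, the beta subunit, had 30.96 CPM in Lamp5, against 64.5 CPM in Sst, 85.3 CPM in Pvalb and 98.4 CPM in Vip cells. Gucy1b1 log2 differences were -1.04 against Sst, -1.43 against Pvalb and -1.64 against Vip cells. For Gucy1b1 the log2 difference was -0.94 against Sst without 1 Lamp5 Pdlim5_2 cell, 1 of 6 Lamp5 cells whose removal ended the call, and -0.94 against Sst without 1 Sst Crhr2_1 cell, which held 7.44% of the Sst reads. The Gucy1b1 call ended against Sst under 8 of the other settings, with values between -0.99 (in cells with at least 500000 counts) and -0.56 (without the Lamp5 Slc35d3 cells), and against Pvalb without the Lamp5 Slc35d3 cells (-0.96) and on shared days (-0.98). Pde5a, the cGMP-specific phosphodiesterase, had 1.89 CPM in Lamp5, against 5.05 CPM in Sst, 90.9 CPM in Pvalb and 43.05 CPM in Vip cells, with a log2 difference of -1.07 from Sst. The Pde5a call ended against Sst under 3 of the other settings, with values between -0.63 (with equal weight for each day) and -0.20 (on shared days). Without 1 Lamp5 Pdlim5_2 cell the Pde5a difference from Sst came to the 2-fold line itself, and without 1 Sst Pvalb Calb2 cell, which held 31.9% of the Sst reads, it was -0.66. Pde11a, a phosphodiesterase for both cAMP and cGMP, was at the other end, with 118.9 CPM in Lamp5, against 0.0316 CPM in Sst, 1.32 CPM in Pvalb and 3.95 CPM in Vip cells. For Pde11a the log2 difference was 6.34 against Pvalb without 1 Pvalb Vipr2_2 cell, which held 63.7% of the Pvalb reads. A read of Pde11a at equal depth was found in 44.3% of Lamp5, against 1.27% of Sst, 2.198% of Pvalb and 10.7% of Vip cells, and its median Lamp5 cell had 0 CPM. The synthase itself, Nos1, which many neurogliaform cells use, had 32.2 CPM in Lamp5, against 49.6 CPM in Sst, 7.44 CPM in Pvalb and 13.8 CPM in Vip cells, and within the family it lay almost wholly in 2 t-types, with 71.4 CPM in Lamp5 Pdlim5_2 and 24.01 CPM in Lamp5 Slc35d3 cells.

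Of 20 measured genes of the extracellular matrix and of secreted factors, 7 were higher and 6 lower than in Sst cells, 11 higher and 6 lower than in Pvalb cells, and 11 higher and 6 lower than in Vip cells. Besides Ndnf, Hapln1 and Fgf13, the proteoglycan gene Vcan was higher than in all 3, with 48.4 CPM in Lamp5, against 3.75 CPM in Sst, 1.57 CPM in Pvalb and 0.142 CPM in Vip cells, although only 19.3% of Lamp5 cells showed a read at equal depth. Acan, a core proteoglycan of the perineuronal net that surrounds Pvalb cells, had no read in any Lamp5 cell, and its level was at least 872-fold lower than the 18.6 CPM of Pvalb cells. Bcan, brevican, had 10.9 CPM in Lamp5, against 82.3 CPM in Sst, 399 CPM in Pvalb and 26.8 CPM in Vip cells. Tnr, tenascin-R, had 4.31 CPM in Lamp5, against 57.9 CPM in Sst, 81.2 CPM in Pvalb and 23.4 CPM in Vip cells. Ncan, neurocan, a proteoglycan of the same kind, was not lower, with 80.2 CPM in Lamp5, against 40.6 CPM in Sst, 30.7 CPM in Pvalb and 68.3 CPM in Vip cells. Cxcl14, a chemokine of CGE-derived cells, was higher than in Sst and Pvalb but not than in Vip cells, with 351 CPM in Lamp5, against 8.63 CPM in Sst, 6.75 CPM in Pvalb and 734 CPM in Vip cells.

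Among 18 measured adhesion and synapse-organising genes, 3 were higher and 4 lower than in Sst cells, 0 higher and 4 lower than in Pvalb cells, and 0 higher and 7 lower than in Vip cells. Cntnap4, a neurexin relative known from Pvalb synapses, had 0.348 CPM in Lamp5, against 57.98 CPM in Sst, 254.2 CPM in Pvalb and 52.1 CPM in Vip cells. Elfn1, a postsynaptic protein that recruits metabotropic glutamate receptors to the inputs of Sst cells, had 1.23 CPM in Lamp5, against 135.4 CPM in Sst, 7.23 CPM in Pvalb and 77.9 CPM in Vip cells. Elfn1 log2 differences were -5.93 against Sst, -1.88 against Pvalb and -5.14 against Vip cells. For Elfn1 the log2 difference was -6.62 against Sst, -2.57 against Pvalb and -5.83 against Vip without 1 Lamp5 Egln3_2 cell, which held 69.5% of its Lamp5 reads. The Elfn1 call ended against Pvalb with a pseudocount of 10 CPM (-0.62). With Cntn4 these were the 3 genes lower than in all families. Lrrtm2, a leucine-rich-repeat organiser, had log2 differences of 0.85 against Sst, 0.57 against Pvalb and 0.78 against Vip cells and was not called.

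The neurofilament genes Nefh, Nefl and Nefm and the coactivator gene Ppargc1a were low in Lamp5 cells. Of 14 measured genes of energy metabolism and filaments, 1 was higher and 4 lower than in Sst cells, 0 higher and 7 lower than in Pvalb cells, and 0 higher and 4 lower than in Vip cells. Only the 4 genes just named were lower than in all 3 families. Ppargc1a, the coactivator that drives mitochondrial biogenesis, had 11.5 CPM in Lamp5, against 88.2 CPM in Sst, 195.4 CPM in Pvalb and 46.4 CPM in Vip cells, but on the days shared with Sst the log2 difference was 0.31 in place of -2.84. Nefh, the heavy neurofilament subunit, had 5.22 CPM in Lamp5, against 33.9 CPM in Sst, 142.3 CPM in Pvalb and 11.6 CPM in Vip cells. Nefh log2 differences were -2.49 against Sst, -4.53 against Pvalb and -1.02 against Vip cells. For Nefh the log2 difference was -0.95 against Vip without 1 Lamp5 Slc35d3 cell, 1 of 11 Lamp5 cells whose removal ended the call, and -0.75 against Vip without 1 Vip Sncg cell, which held 19.6% of the Vip reads. The Nefh call ended against Vip under 6 of the other settings, with values between -0.97 (with median-of-ratios scaling) and -0.44 (without the Lamp5 Slc35d3 cells). Nefl, the light subunit, had 7.19 CPM in Lamp5, against 53.3 CPM in Sst, 115.8 CPM in Pvalb and 46.6 CPM in Vip cells. Nefm, the medium subunit, had 4.90 CPM in Lamp5, against 52.5 CPM in Sst, 105.4 CPM in Pvalb and 22.8 CPM in Vip cells. Nefm log2 differences were -3.18 against Sst, -4.17 against Pvalb and -2.01 against Vip cells. For Nefm the log2 difference was -3.83 against Sst, -4.83 against Pvalb and -2.67 against Vip without 1 Lamp5 Pdlim5_2 cell, which held 44.2% of its Lamp5 reads. The Nefm call ended against Vip with equal weight for each day (-0.59). Nefl and Nefm overlap on opposite strands of chromosome 14 in the annotation, so their reads cannot be fully told apart in a library without strand. Atp5b, a subunit of ATP synthase, had 1433 CPM in Lamp5, against 1306 CPM in Sst, 1874 CPM in Pvalb and 1419 CPM in Vip cells.

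Calcium-binding proteins differed between the families in both directions, and none was higher or lower in Lamp5 cells than in all 3. Of 9 measured genes, 4 were higher and 4 lower than in Sst cells, 3 higher and 2 lower than in Pvalb cells, and 1 higher and 3 lower than in Vip cells. Necab1, an EF-hand protein, had 444 CPM in Lamp5, against 15.9 CPM in Sst, 18.6 CPM in Pvalb and 259.1 CPM in Vip cells. Rcn1, a calcium-binding protein of the endoplasmic reticulum, had 9.15 CPM in Lamp5, against 28.7 CPM in Sst, 15.8 CPM in Pvalb and 28.8 CPM in Vip cells. For Rcn1 the log2 difference was -2.63 against Sst and -2.64 against Vip without 1 Lamp5 Slc35d3 cell, which held 59.7% of its Lamp5 reads. Pvalb, Calb1 and Calb2, the classical markers of other interneurons, were low in Lamp5 cells, with 2.75 CPM of Pvalb, 15.6 CPM of Calb1 and 0.135 CPM of Calb2.

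Most immediate early genes, which activity induces, were not called. Of 12 measured immediate early genes, 2 were higher and 0 lower than in Sst cells, 2 higher and 1 lower than in Pvalb cells, and 3 higher and 1 lower than in Vip cells, with median log2 differences of 0.52 against Sst, 0.53 against Pvalb and 0.83 against Vip cells, and none was called against all 3 families. Nr4a1, an orphan nuclear receptor, had 246.7 CPM in Lamp5, against 54.3 CPM in Sst, 56.9 CPM in Pvalb and 128.6 CPM in Vip cells, and Ier2 had 162.1 CPM in Lamp5, against 69.5 CPM in Sst, 89.2 CPM in Pvalb and 90.4 CPM in Vip cells. Btg2, an antiproliferative gene of this set, had log2 differences of 0.70 against Sst, 0.97 against Pvalb and 0.83 against Vip cells. Egr2, a zinc-finger factor, had 61.5 CPM in Lamp5, against 35.04 CPM in Sst, 13.96 CPM in Pvalb and 14.9 CPM in Vip cells, with a median of 0 CPM in Lamp5 cells. The Egr2 call ended against Pvalb without the Lamp5 Slc35d3 cells (0.87), and against Vip without the Lamp5 Slc35d3 cells (0.78). No gene of 9 measured stress genes was called against any family, and their median log2 differences were 0.11 against Sst, 0.02 against Pvalb and 0.07 against Vip cells. Hspa8, an abundant heat-shock cognate protein, had 2216 CPM in Lamp5, against 2056 CPM in Sst, 2010 CPM in Pvalb and 1995 CPM in Vip cells. The chaperones Hsp90aa1 and Hspa1a had log2 differences of 0.22 against Sst, 0.20 against Pvalb and 0.19 against Vip cells for Hsp90aa1 and of -0.30 against Sst, -0.29 against Pvalb and -0.06 against Vip cells for Hspa1a, and the stress gene Gadd45b had 0.78 against Sst, 0.02 against Pvalb and 0.30 against Vip cells. So the 4 families were alike in these signs of stress within 2-fold.

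Markers of other cells were compared because an aspirated cell can carry RNA of its neighbours. The 8 microglia markers summed to a median of 292 CPM in Lamp5 cells, against 275.1 CPM in Sst, 238.9 CPM in Pvalb and 284.7 CPM in Vip cells, with maxima of 10841 CPM in Lamp5, 10044 CPM in Sst, 14807 CPM in Pvalb and 21214 CPM in Vip cells. Of these Ctss had log2 differences of -0.15 against Sst, -0.46 against Pvalb and -0.54 against Vip cells and P2ry12 of -0.32 against Sst, -0.68 against Pvalb and -0.57 against Vip cells, none of them called. Tmem119 had -0.15 against Sst, -1.62 against Pvalb and -1.31 against Vip cells. For Tmem119 the log2 difference was -2.21 against Pvalb and -1.90 against Vip without 1 Lamp5 Pdlim5_2 cell, which held 37.9% of its Lamp5 reads, and -0.90 against Vip without 1 Vip Mybpc1_3 cell, which held 26.8% of the Vip reads. The Tmem119 call ended against Pvalb with equal weight for each day (-0.66) and on shared days (0.02), and against Vip under 4 of the other settings, with values between -0.83 (with a pseudocount of 10 CPM) and -0.62 (with equal weight for each day). The oligodendrocyte markers summed to a median of 69.9 CPM in Lamp5 cells, against 320.3 CPM in Sst, 304 CPM in Pvalb and 142.8 CPM in Vip cells, with maxima of 6332 CPM in Lamp5, 18917 CPM in Sst, 9602 CPM in Pvalb and 10841 CPM in Vip cells. The myelin gene Mbp had 170.4 CPM in Lamp5, against 477 CPM in Sst, 487 CPM in Pvalb and 346 CPM in Vip cells, with a log2 difference of -1.02 from Vip. For Mbp the log2 difference was -0.92 against Vip without 1 Lamp5 Pdlim5_2 cell, 1 of 10 Lamp5 cells whose removal ended the call, and -0.87 against Vip without 1 Vip Mybpc1_3 cell, which held 12.1% of the Vip reads. The Mbp call ended against Vip under 4 of the other settings, with values between -0.98 (with a pseudocount of 10 CPM) and -0.54 (with equal weight for each day). Mobp, also of myelin, had log2 differences of -0.62 against Sst, -0.63 against Pvalb and -0.52 against Vip cells. Astrocyte markers summed to a median of 177.3 CPM in Lamp5 cells, against 33.8 CPM in Sst, 31.8 CPM in Pvalb and 102.9 CPM in Vip cells, with maxima of 2362 CPM in Lamp5, 5126 CPM in Sst, 4149 CPM in Pvalb and 2077 CPM in Vip cells. Of this list Slc1a3, a glutamate transporter, had 44.9 CPM in Lamp5, against 36.1 CPM in Sst, 36.7 CPM in Pvalb and 14.2 CPM in Vip cells and Slc1a2 had 146.6 CPM in Lamp5, against 89.2 CPM in Sst, 74.95 CPM in Pvalb and 177.7 CPM in Vip cells, while Aqp4 and Gfap, which define astrocytes, were at 5.61 CPM and 4.46 CPM in Lamp5 cells. The Slc1a3 call ended against Vip with equal weight for each cell (0.86). The astrocyte sum was therefore higher and the oligodendrocyte sum lower in the median Lamp5 cell than in Sst and Pvalb cells, and the part of these sums in the differences between families was not tested. No vascular marker was measured at a mean of 10 CPM, and of 10 excitatory markers 3 were measured. Slc17a7, the vesicular glutamate transporter that defines them, was at 7.15 CPM in Lamp5, against 6.48 CPM in Sst, 3.76 CPM in Pvalb and 12.998 CPM in Vip cells. Slc30a3, a vesicular zinc transporter, had log2 differences of -3.72 against Sst, -2.36 against Pvalb and -0.82 against Vip cells, and Nrgn, neurogranin, had 0.75 against Sst, 1.14 against Pvalb and 0.04 against Vip cells. For Nrgn the log2 difference was 0.97 against Pvalb without 1 Lamp5 Egln3_2 cell, 1 of 2 Lamp5 cells whose removal ended the call. The Nrgn call ended against Pvalb with equal weight for each cell (0.98) and with a pseudocount of 10 CPM (0.67). Olig1, the measured marker of oligodendrocyte precursors, had log2 differences of -0.94 against Sst, -0.01 against Pvalb and -0.33 against Vip cells, and the vascular marker Vtn had no read in any Lamp5 cell.

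Markers of the other interneuron families summed to less in the median Lamp5 cell than in the family they mark. Per cell the Sst markers summed to a median of 97.1 CPM in Lamp5 cells, against 4497 CPM in Sst, 574 CPM in Pvalb and 277.4 CPM in Vip cells. The Pvalb markers summed to 236.4 CPM in Lamp5 cells, against 497 CPM in Sst, 2350 CPM in Pvalb and 382 CPM in Vip cells. Nxph4, a neurexophilin, had no read in any Lamp5 cell, against 1.07 CPM in Vip cells. That Vip level came from 5 cells, too few to show that Lamp5 cells hold less of the gene. The Vip markers summed to 521 CPM in Lamp5 cells, against 1330 CPM in Sst, 150.3 CPM in Pvalb and 14980 CPM in Vip cells, so the Lamp5 sum was above that of Pvalb cells. Chodl, a marker of long-range Sst cells, had no read in any Lamp5 cell and was at least 485-fold lower than the 10.3 CPM of Sst cells. That Sst level came from 18 cells. Trhde, of the Sst list, had 0.532 CPM in Lamp5, against 178.7 CPM in Sst, 13.1 CPM in Pvalb and 54.7 CPM in Vip cells. Cbln4, a secreted synaptic organiser of the same list, had 0.0568 CPM in Lamp5, against 71.5 CPM in Sst, 0.858 CPM in Pvalb and 11.4 CPM in Vip cells, but on the days shared with Sst it had no read in either family, and on those shared with Vip the log2 difference was 0.044 in place of -3.55. Of 10 measured Pvalb markers 1 was higher and 5 lower than in Sst cells, 1 higher and 9 lower than in Pvalb cells, and 1 higher and 5 lower than in Vip cells, and Tac1, Kcnc2, Il1rapl2 and Plcxd3 were lower than in all 3 families. Il1rapl2, a receptor relative of the interleukin family, had 0.277 CPM in Lamp5, against 15.4 CPM in Sst, 92.1 CPM in Pvalb and 4.58 CPM in Vip cells. For Il1rapl2 the log2 difference was 0.32 against Vip without 1 Vip Mybpc1_3 cell, which held 99.6% of the Vip reads. The Il1rapl2 call ended against Vip under 4 of the other settings, with values between -0.96 (with equal weight for each cell) and 0.34 (in the later recording period). Plcxd3, a phospholipase-like protein, had 4.63 CPM in Lamp5, against 44.8 CPM in Sst, 145.9 CPM in Pvalb and 10.8 CPM in Vip cells. For Plcxd3 the log2 difference was -5.37 against Sst, -7.06 against Pvalb and -3.42 against Vip without 1 Lamp5 Slc35d3 cell, which held 97.9% of its Lamp5 reads, -0.99 against Vip without 1 Lamp5 Pdlim5_2 cell, and -0.52 against Vip without 1 Vip Serpinf1_1 cell, which held 35.8% of the Vip reads. The Plcxd3 call ended against Vip with a pseudocount of 10 CPM (-0.51) and in the later recording period (-0.92). Synpr, a vesicle protein of the Vip list, had 16.1 CPM in Lamp5, against 1462 CPM in Sst, 31.4 CPM in Pvalb and 2523 CPM in Vip cells. Synpr log2 differences were -6.42 against Sst, -0.92 against Pvalb and -7.21 against Vip cells. For Synpr the log2 difference was -7.08 against Sst and -7.87 against Vip without 1 Lamp5 Egln3_1 cell, which held 39.7% of its Lamp5 reads. Of 4 measured markers of the Sncg family, a further CGE-derived group, 4 were higher and 0 lower than in Sst cells, 3 higher and 0 lower than in Pvalb cells, and 1 higher and 2 lower than in Vip cells. Col14a1, a collagen of that list, was the one higher than in all 3, with 52.5 CPM in Lamp5, against 0.626 CPM in Sst, 0.969 CPM in Pvalb and 3.57 CPM in Vip cells. For Col14a1 the log2 difference was 4.38 against Vip without 1 Vip Serpinf1_2 cell, which held 56.3% of the Vip reads.

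Of 16 measured genes on a list of neurogliaform markers, 10 were higher and 2 lower than in Sst cells, 12 higher and 2 lower than in Pvalb cells, and 12 higher and 2 lower than in Vip cells, and 8 were higher than in all 3 families. The list was chosen with earlier results of these data known. It holds the leading genes Cplx3, Sv2c and Hapln1, which were picked by these same differences, so its counts are a description and no support for the identity of the cells. Kit, a receptor tyrosine kinase, had 1026 CPM in Lamp5, against 8.18 CPM in Sst, 9.91 CPM in Pvalb and 395 CPM in Vip cells, with medians of 604 CPM in Lamp5 cells, against 0 CPM in Sst, 0 CPM in Pvalb and 197.999 CPM in Vip cells. Lsp1, a cytoskeletal protein of leukocytes, had 97.5 CPM in Lamp5, against 4.21 CPM in Sst, 6.77 CPM in Pvalb and 16.3 CPM in Vip cells, but its reads came mostly from the Lamp5 Slc35d3 type, and without those cells the difference from Vip was -0.72 in place of 2.51. For Lsp1 the log2 difference was 4.89 against Sst without 1 Sst Pvalb Etv1 cell, which held 45.01% of the Sst reads, and 3.57 against Vip without 1 Vip Chat_1 cell, which held 55.6% of the Vip reads. The Lsp1 call ended against Pvalb without the Lamp5 Slc35d3 cells (0.43). Moxd1, on the same list, did not mark these cells, with 0.880 CPM in Lamp5, against 110.9 CPM in Sst, 67.4 CPM in Pvalb and 0.137 CPM in Vip cells.

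The 90 cells fell into 7 t-types: 37 Lamp5 Slc35d3, 24 Lamp5 Pdlim5_2, 9 Lamp5 Egln3_1, 9 Lamp5 Egln3_2, 5 Lamp5 Pax6, 4 Lamp5 Pdlim5_1 and 2 Lamp5 Egln3_3 cells. Most of the family's leading genes were high in most of its t-types, but not in Lamp5 Egln3_1 and Lamp5 Pax6 cells. The 2 largest t-types held most of the counts from which these genes were chosen. In Lamp5 Slc35d3 cells 14 and in Lamp5 Pdlim5_2 cells all 15 leading genes were at least 2-fold above each of the other families, against 5 in Lamp5 Egln3_1 and 5 in Lamp5 Pax6 cells. The count was 12 in Lamp5 Egln3_2, 15 in Lamp5 Pdlim5_1 and 10 in Lamp5 Egln3_3 cells. Lamp5 itself was low in Lamp5 Egln3_1 cells: the summed level was 1142 CPM in Lamp5 Slc35d3, 1031 CPM in Lamp5 Pdlim5_2, 4.65 CPM in Lamp5 Egln3_1, 828 CPM in Lamp5 Egln3_2, 253.9 CPM in Lamp5 Pax6, 1291 CPM in Lamp5 Pdlim5_1 and 1407 CPM in Lamp5 Egln3_3 cells. Only 3 of 9 Lamp5 Egln3_1 cells held a read of it. In that t-type the name of the family and its first marker thus did not go together. Of the Lamp5 Pax6 cells 2 of 5 held a read, but their summed level was at least 2-fold above each of the other families. Counts in those 5 cells went down to 72692, so a missing read there does not show that a cell lacks the gene.

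The secreted factors divided the t-types in turn. Npy was at 10367 CPM in Lamp5 Slc35d3 and 4102 CPM in Lamp5 Pdlim5_2 cells, but at 44.5 CPM in Lamp5 Egln3_1, 275.5 CPM in Lamp5 Egln3_2 and 1.72 CPM in Lamp5 Pax6 cells. Ndnf was at 12.7 CPM in Lamp5 Slc35d3, 523 CPM in Lamp5 Pdlim5_2 and 1020 CPM in Lamp5 Egln3_2 cells, and no read of it was found in Lamp5 Egln3_1 or Lamp5 Pax6 cells. Reln was lowest in Lamp5 Slc35d3 cells, with 53.7 CPM in Lamp5 Slc35d3, 670.1 CPM in Lamp5 Pdlim5_2, 1192 CPM in Lamp5 Egln3_1 and 1440 CPM in Lamp5 Egln3_2 cells. The Lamp5 Slc35d3 type was thus rich in Npy and poor in Ndnf and Reln, Lamp5 Pdlim5_2 held all 3, and Lamp5 Egln3_2 was rich in Ndnf and Reln. Cxcl14 was at 5.46 CPM in Lamp5 Slc35d3, 1265 CPM in Lamp5 Egln3_1 and 1763 CPM in Lamp5 Egln3_2 cells. Cnr1, the cannabinoid receptor, was at 121.99 CPM in Lamp5 Slc35d3, 2935 CPM in Lamp5 Egln3_1 and 1707 CPM in Lamp5 Pax6 cells. Cck, the cholecystokinin precursor, was at 166.3 CPM in Lamp5 Slc35d3, 658 CPM in Lamp5 Egln3_1 and 519.9 CPM in Lamp5 Pax6 cells.

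Other genes, among them receptor and adhesion genes, also divided the t-types. Gabra5 was at 242.5 CPM in Lamp5 Slc35d3 and 188.9 CPM in Lamp5 Pdlim5_2 cells, against 2.36 CPM in Lamp5 Egln3_1 and 0.361 CPM in Lamp5 Egln3_2 cells. Sv2c was at 515 CPM in Lamp5 Slc35d3 and 499 CPM in Lamp5 Pdlim5_2 cells, against 28.1 CPM in Lamp5 Egln3_1 and 48.96 CPM in Lamp5 Egln3_2 cells. Chrna7 had the opposite order, with 27.8 CPM in Lamp5 Slc35d3 and 51.3 CPM in Lamp5 Pdlim5_2 cells, against 460.0 CPM in Lamp5 Egln3_1 and 319.8 CPM in Lamp5 Egln3_2 cells. So Gabra5 and Chrna7, both leading genes of the family, were high in different t-types of it. Pcdh7 was at 8.29 CPM in Lamp5 Slc35d3 and 5.03 CPM in Lamp5 Pdlim5_2 cells, against 343 CPM in Lamp5 Egln3_1, 205.5 CPM in Lamp5 Egln3_2 and 195.3 CPM in Lamp5 Pax6 cells. Kit was at 1155 CPM in Lamp5 Slc35d3 and 1392 CPM in Lamp5 Pdlim5_2 cells, against 84.1 CPM in Lamp5 Egln3_1 and 1.72 CPM in Lamp5 Pax6 cells. Cacna2d1 and Kctd16, by contrast, were present in every t-type, with Cacna2d1 between 148.9 and 427 CPM and Kctd16 between 496 and 795 CPM.

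**Figure D4:**
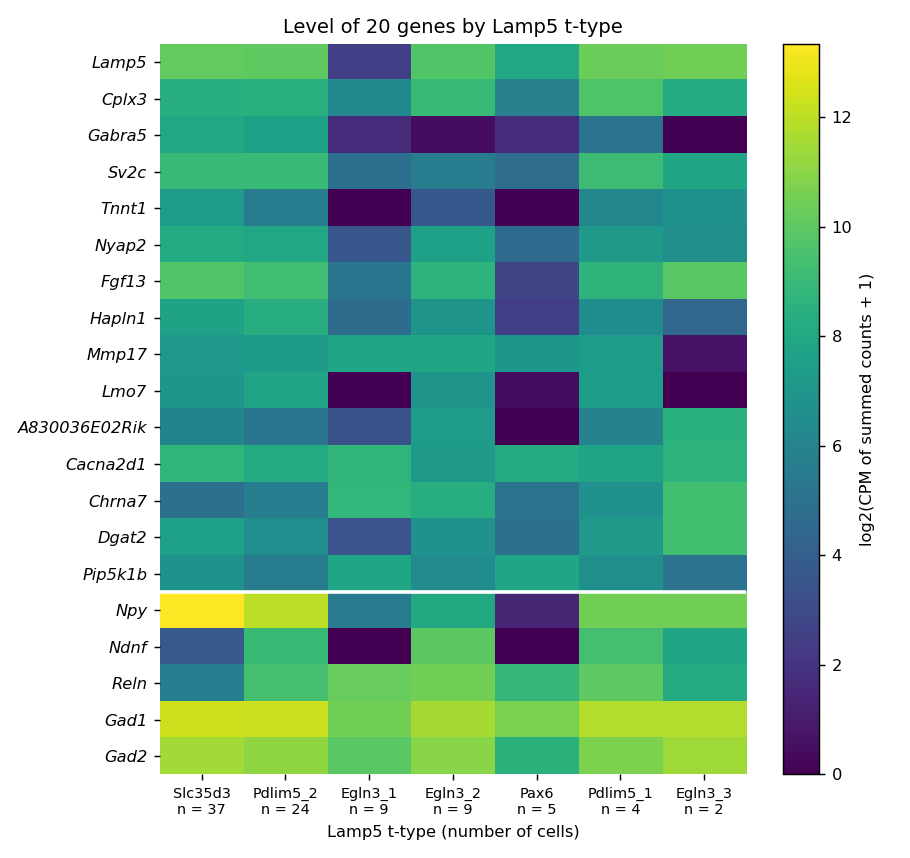
Summed level, as log2(CPM + 1), of the 15 leading genes (above the white line) and of Npy, Ndnf, Reln, Gad1 and Gad2 (below it) in the 7 Lamp5 t-types, with the number of cells under each type. Brighter squares are higher. Lamp5 Egln3_1 and Lamp5 Pax6 are dark for Gabra5, Tnnt1, Lmo7 and Ndnf, where their levels were at most 2.41 CPM, and bright for Cacna2d1 and Reln, where they were at least 292 CPM.

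The genes in the names of the t-types were themselves sparse. Slc35d3, a nucleotide-sugar transporter relative, was at 32.5 CPM in Lamp5 Slc35d3 cells, and 10 of 37 of them held a read. Its level was 8.66 CPM in Lamp5 Pdlim5_2 and 7.98 CPM in Lamp5 Egln3_1 cells. Pdlim5, a PDZ and LIM domain protein, was read in 3 of 24 Lamp5 Pdlim5_2 cells (30.5 CPM) and in none of the 4 Lamp5 Pdlim5_1 cells. Egln3, an oxygen-sensing prolyl hydroxylase, was at 311 CPM in Lamp5 Egln3_1 and 109.1 CPM in Lamp5 Egln3_2 cells, and at 239.4 CPM in Lamp5 Pax6 cells, but at 0.592 CPM in the 2 Lamp5 Egln3_3 cells. Pax6, a paired-box factor, was at 270.1 CPM in Lamp5 Pax6 and 121.5 CPM in Lamp5 Egln3_1 cells. Pdlim5 and Egln3 were therefore low or not seen in some types that carry their names.

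For each t-type with at least 5 cells the 5 genes that stood furthest above the other Lamp5 cells were chosen from these same levels. In Lamp5 Slc35d3 cells they were Lsp1, Nfia, Rasl11a, Tex9 and Mphosph10. Lsp1 was at 202.4 CPM in Lamp5 Slc35d3 cells, against 9.50 CPM in the other Lamp5 cells, and it was read in 23 of 37 of these cells, against 10 of 53 other Lamp5 cells. Nfia was at 126.6 CPM in Lamp5 Slc35d3 cells, against 15.2 CPM in the other Lamp5 cells, and Rasl11a, a small GTPase, at 179.4 CPM in Lamp5 Slc35d3 cells, against 22.3 CPM in the other Lamp5 cells. The median Lamp5 Slc35d3 cell had 95.9 CPM of Lsp1 and 39.6 CPM of Nfia, where the other Lamp5 cells had medians of 0, but the ranges overlapped. In Lamp5 Pdlim5_2 cells they were Gskip, Lig1, Htr2a, Tnpo1 and Iqgap2, whose medians over the 24 cells lay between 1.20 and 9.63 CPM, so that the sums rested on a minority of cells. Htr2a, a serotonin receptor, was at 104.1 CPM in Lamp5 Pdlim5_2 cells, against 15.6 CPM in the other Lamp5 cells, and the highest cell had 2162 CPM.

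In Lamp5 Egln3_1 cells the 5 genes were Megf10, Nell1, Runx1t1, Itga8 and Dscam. Nell1, a secreted glycoprotein, was at 161.3 CPM in Lamp5 Egln3_1 cells, against 0.699 CPM in the other Lamp5 cells, with a median of 235.9 CPM over its 9 cells. Megf10, an engulfment receptor, was at 134.1 CPM in Lamp5 Egln3_1 cells, against 0.141 CPM in the other Lamp5 cells, and it was read in 5 of 9 of these cells, against 2 of 81 other Lamp5 cells. Lamp5 Egln3_2 cells stood out in Crim1, Pcdh18, Ndst4, Tmem196 and Dok6, and Pcdh18, a protocadherin, was at 340.0 CPM in Lamp5 Egln3_2 cells, against 12.4 CPM in the other Lamp5 cells. The median Lamp5 Egln3_2 cell had 1.15 CPM of Pcdh18, so that value too came from a minority of cells. Lamp5 Pax6 cells stood out in Capn6, Gm16083, Adcy2, Gm49227 and Col6a3, each read in 3 of 5 cells, and the deepest cell of this t-type gave 48.3% of its counts. Adcy2, an adenylyl cyclase, was at 80.3 CPM in Lamp5 Pax6 cells, against 0.420 CPM in the other Lamp5 cells.

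The values of the whole family thus weigh its t-types by their cells and depth. Among named genes run under the settings, 27 (9.44%) of the differences past 2-fold fell below it or turned round without the Lamp5 Slc35d3 cells. Among cells of the later recording period, which held most of the Lamp5 and Vip cells, 4 (1.40%) did. With equal weight for each recording day 24 (8.39%) did so, and on the days shared with the other family 40 (13.99%). Most of these genes were picked by these same differences, so the shares do not stand for all genes. Of all genes higher and of those lower than in all 3 families, 57.5% and 75.2% stayed called without the Lamp5 Slc35d3 cells. On shared days 44.8% and 41.3% did.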

How the data were processed

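Exonic read counts per gene of the cells recorded at 25 °C were used as the authors deposited them, with unit counts and no normalization. Per the labels and the study's methods, Smart-seq2 libraries were demultiplexed with bcl2fastq 2.20, aligned to mm10 with STAR 2.5.4b and counted with zUMIs on GENCODE annotation. The table held 42381 gene rows and 85 ERCC spike-in rows, which took 4.18% of the counts of the cells used and were left out. Of its 1329 columns, 9 matched no labelled sample and 520 held other cells. Intronic counts and cells recorded at 34 °C were not used here. No cell columns were identical (0 found).

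Counts of 800 cells were summed by family and scaled to CPM with Python 3.11.15, numpy 2.4.6, scipy 1.17.1 and pandas 2.3.3, and figures were drawn with matplotlib 3.10.9. A pseudocount of 1 CPM, a filter at a mean of 10 CPM and a call at a 2-fold difference were used. The arithmetic of the comparison was checked on simulated counts in which all cells of a family shared 1 profile. That check did not cover variation between cells, t-types or days. Coordinates came from a GENCODE annotation of GRCm38, in which 479 of 481 symbols matched once.

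The genes named were the 3 given markers, 15 leading and 15 lowest genes, up to 4 measured genes from each of 37 lists (442 genes, 438 in the table) with the greatest difference in one direction against all 3 families, defining genes at 0, and for the t-types the genes in their names and 5 leading genes for each type of at least 5 cells. A few genes that this rule picks are not reported here. The members and lists were chosen with earlier results of these data known. Adarb2, Prox1, Kit, Reln, Cxcl14, Cnr1, Cck, Htr3a, Gabrd, Nos1, Grm5, Cplx1, Cacna2d2, Slc32a1, Moxd1, Bcan, Tnr, Ncan, Atp5b, Calb1, Aqp4, Gfap, Slc1a2, Slc17a7, Sst and Vip fall outside this rule and were named after their values had been seen. Alternatives were other weights of cells, scaling, filter, pseudocount, depth, period and t-types, and, chosen after the data had been seen, shared recording days and single cells left out.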

Additional observations from a re-analysis of the deposited data

How the results depend on the processing

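As reported, 7.23% of the measured genes were higher and 10.2% lower in Lamp5 than in Sst cells, 8.88% and 12.6% than in Pvalb cells, 7.11% and 9.35% than in Vip cells, and 2.11% and 4.01% than in all 3 families. With genes measured at a mean of 1 CPM, more genes were tested and 9.44% (1546 genes) were higher and 14.7% (2403 genes) lower than in Sst cells, where the reported values are 756 and 1070 genes, 10.5% and 16.2% than in Pvalb cells, 9.63% and 13.5% than in Vip cells, and 3.29% and 5.19% than in all 3. With a pseudocount of 10 CPM, which shrinks the differences of low genes, the shares were 4.63% higher and 5.84% lower than in Sst, 5.83% and 7.84% than in Pvalb, 3.9996% and 5.30% than in Vip cells, and 1.22% and 1.26% than in all 3. On shared recording days, an alternative chosen after the data had been seen, 19.6% were higher and 19.1% lower than in Sst cells, 13.1% and 17.5% than in Pvalb cells, and 11.4% and 12.7% than in Vip cells, so that the order of Sst and Pvalb was turned round. The shared-day sums against Sst held 25 Lamp5 and 26 Sst cells. Leaving out each Lamp5 cell in turn gave 7.13 to 7.52% higher and 9.62 to 10.6% lower than in Sst, 8.59 to 9.01% and 11.9 to 12.8% than in Pvalb, 6.95 to 7.44% and 8.94 to 9.58% than in Vip cells, and 1.90 to 2.16% and 3.75 to 4.17% than in all 3.

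Among named genes run under the settings, the log2 difference changed sign on shared recording days for Grm3 (0.40), Kcnh2 (0.65) and Ppargc1a (0.31) against Sst. It did so for Grm8 (2.70), Sstr2 (-0.39) and Tmem119 (0.023) against Pvalb, and for Cbln4 (0.044), Il1rapl2 (0.14) and Tac1 (1.68) against Vip cells. With the mean of single-cell CPM it changed sign for Grm8 against Pvalb (0.56), in cells of the later recording period for Il1rapl2 against Vip (0.34), and without the Lamp5 Slc35d3 cells for Lsp1 (-0.72) and Nfia (-0.23) against Vip. The cause of these changes was not tested.

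Of the called differences of named genes run under the settings, 23 (8.04%) were no longer called with the mean of single-cell CPM. The count was 5 (1.75%) with median-of-ratios scaling, 29 (10.1%) with a pseudocount of 10 CPM and 2 (0.699%) in cells with at least 500000 counts. It was 12 (4.20%) when any single Lamp5 cell was left out. Most named genes were picked by these same differences, so these shares do not stand for all called genes. Of the genes higher and of those lower than in all 3 families, 60.6% and 63.5% were called likewise with the mean of single-cell CPM, 57.5% and 75.2% without the Lamp5 Slc35d3 cells, and 44.8% and 41.3% on shared recording days. No paired analysis was possible because no result comes from a test and the labels number no replicates. The recording days, taken from the dates in the titles, were used for the shared-day and day-weighted values, for counts over single days and for the recording period. Depth limits the statements on sparse genes: a gene with no read in the Lamp5 family lay below the floor of 3 reads over all its cells.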
